A study of Mus musculus with 23 samples.

Results

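The genes described here are the PPAR receptors and the genes that bring fatty acids into muscle: the receptors Ppara and Ppard, lipoprotein lipase (Lpl) with its capillary anchor Gpihbp1 and its inhibitor Angptl4, the membrane and cytosolic carriers Cd36, Slc27a1 and Fabp3, and the uncoupling proteins Ucp2 and Ucp3. The 10 genes were chosen by function, with earlier results of these data known, and all probes that the platform annotation pairs with them were taken. These are 14 of the 45281 probes on the array, and they read 9 of the 10 genes. Ucp2 was matched to no probe and was not analysed here. Gene expression was measured on Illumina MouseWG-6 v2.0 bead arrays in total RNA of the gastrocnemius muscle, a mostly fast calf muscle, with 1 mouse per array and 23 arrays in all. Ts3Yah mice (n = 6, labelled Ts2Yah Dup) carry a tandem duplication of the interval from Hspa13 to App on chromosome 16 and were compared with diploid littermates (n = 5). Ms3Yah mice (n = 6, labelled Ms3Yah Del) carry the matching deletion and were compared with their own diploid littermates (n = 6). Both lines were made by Cre/loxP recombination in embryonic stem cells, the duplication does not add a working copy of Hspa13 or App, and all mice were on the C57BL6/J background given in the labels. The mice on the arrays were adults, with no exact age given in the sources used here, and none of the 10 genes lies on the engineered chromosome. The question was how an extra or a missing copy of this interval affects expression of the fatty acid supply genes in muscle.

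PPARs are nuclear receptors that bind fatty acids. Paired with a retinoid X receptor, they sit on repeats of the sequence AGGTCA and switch on genes for fatty acid uptake and oxidation. In muscle, Ppard is the form best known for this role, while Ppara is best known from liver and heart. Lipoproteins are a source of fatty acids for the fibre, though not the only source. Lpl, made by muscle fibres and adipocytes, is carried to the capillary surface by Gpihbp1 on endothelial cells. There Lpl releases fatty acids from lipoproteins, and it is inactivated by Angptl4. Cd36 and Slc27a1 take fatty acids across the membrane and Fabp3 carries them inside the fibre. Ucp3 is a mitochondrial carrier of skeletal muscle whose RNA is known to go up when fatty acid supply goes up. The PPAR corepressor Nrip1 lies inside the engineered interval.

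Signals are quoted after quantile normalisation over the 23 arrays, on the linear scale, and a probe was counted as detected on an array when its deposited detection p-value was below 0.05. Between 16945 and 18669 probes were detected per array. For 5 other genes of the interval detected on every array, 1 probe each was compared. The Ms3Yah over diploid ratio of mean signals was 0.6 to 0.772 for all 5. The Ts3Yah over diploid ratio was 1.07 to 1.47 for 4, while the Usp25 probe had 0.796. The paper, using quantitative PCR, reports Usp25 among the genes that followed gene dosage in both lines. All 8 markers of fast muscle fibres were detected on every array. Sex is not in the labels. Xist signal split the arrays into 12 high and 11 low, with 4 of 6 Ts3Yah mice and 2 of 5 of their littermates high, and 3 of 6 mice high in Ms3Yah and in its diploid group. Nothing in the labels ties the mice of a group to separate litters, so p-values measure the spread between these mice.

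PPARs and their partners bind AGGTCA, and the 250 bases before an annotated start are given in RefSeq (build GRCm38.p6) for 7 of the 10 genes, in 9 windows; Lpl, Gpihbp1 and Angptl4 were not matched there. The start is the first base of the annotated gene for Ppard, Fabp3 and Ucp3, and lies inside the gene for Ppara, Cd36, Ucp2 and Slc27a1, the last with 3 starts. AGGTCA, read on either strand, was found in 2 of these 9 windows, against 14% of all 32851 such windows, and the direct repeat known to bind the PPAR and retinoid X receptor pair, AGGTCA, any base and AGGTCA again, also on either strand, was found in none of the 9, against 0.0335% of all windows. The windows of Ucp3 and Cd36 are shown because they hold the half-site, which is in capitals. A match is a run of letters and no evidence of binding, and no match says only that these letters are not in this window. Ucp3 has the half-site at 149 and 44 bases before the start on the gene's strand, in chr7:100472741-100472990 (plus strand), and Cd36 has it at 228 bases on the opposite strand, where it reads TGACCT, in chr5:17835897-17836146 (minus strand).
Ucp3: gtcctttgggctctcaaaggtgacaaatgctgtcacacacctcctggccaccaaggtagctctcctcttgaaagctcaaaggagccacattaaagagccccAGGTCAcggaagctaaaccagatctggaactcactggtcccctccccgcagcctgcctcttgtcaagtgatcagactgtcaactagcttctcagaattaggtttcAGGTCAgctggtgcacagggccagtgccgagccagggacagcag
Cd36: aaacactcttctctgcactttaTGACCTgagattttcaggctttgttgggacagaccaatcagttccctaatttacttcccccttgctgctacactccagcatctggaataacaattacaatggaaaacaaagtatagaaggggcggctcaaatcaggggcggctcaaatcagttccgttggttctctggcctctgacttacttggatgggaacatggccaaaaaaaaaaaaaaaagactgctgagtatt

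No member passed the test after adjustment in either line. Each line was fitted with limma over all expressed probes, and the adjusted p of the 14 member probes was 0.853 or higher in Ts3Yah and 0.843 or higher in Ms3Yah. Adjusted calls were rare over the whole array, with 0.00455% of 43917 probes in Ts3Yah and 0.018% of 44363 in Ms3Yah. Before adjustment, 1 of the 14 probes was lower in Ts3Yah at a p below 0.05 and none was higher, against 2.81% of all probes lower and 2.74% higher, or 5.56% in either direction. In Ms3Yah 2 of the 14 were higher and none lower, against 2.71% of all probes higher and 2.46% lower, or 5.16% in either direction. All 3 were Gpihbp1 probes. For no member did the 2 groups of a line separate fully, a pattern seen for 0.262% of all probes upwards and 0.276% downwards in Ts3Yah, and for 0.158% and 0.126% in Ms3Yah. Among the 10 member probes detected on all 23 arrays, the log2 difference in Ts3Yah was negative for 8 and positive for 2 (median −0.11). In Ms3Yah it was positive for 7 and negative for 3 (median 0.19). Over all 14 member probes, 9 were negative and 5 positive in Ts3Yah (median −0.04), and 8 positive and 6 negative in Ms3Yah (median 0.08). The median of all expressed probes was within 0.001 of 0 in both lines. It includes probes not detected on every array, and no median or share of signs over detected probes alone is given here. Several of the member probes read the same gene, so they are not independent of each other.

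**Figure D1:**
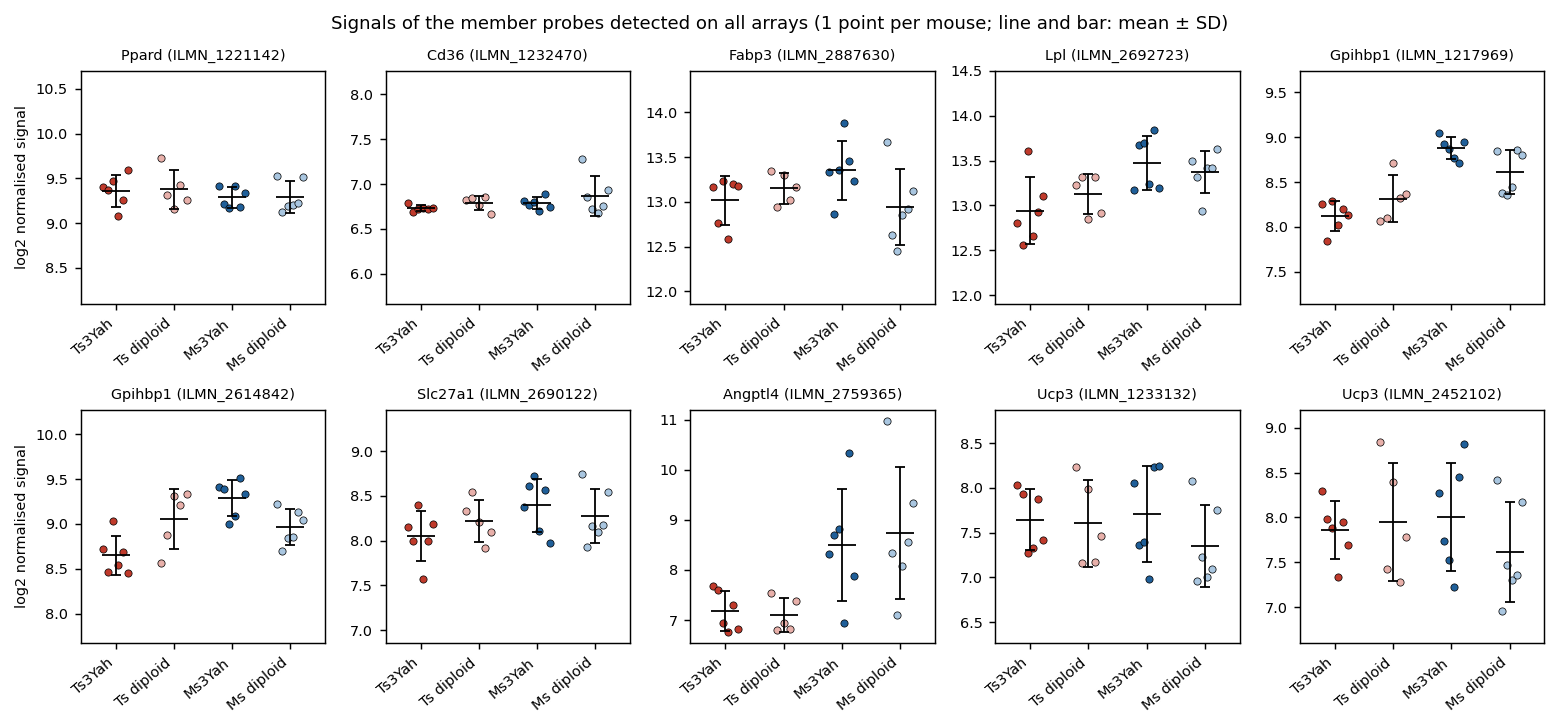
Log2 normalised signal of the 10 member probes detected on all arrays, 1 point per mouse, with the mean and SD of each group as a line and bar and the aneuploid group left of its diploid littermates. All panels span the same range except Angptl4, whose wider axis takes in signals of 123 to 1288 in Ms3Yah mice and 138 to 2026 in their diploid littermates; the Gpihbp1 panels show Ts3Yah below and Ms3Yah above their littermates with overlap.

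Of the receptors, Ppard did not differ between genotypes beyond the spread of the mice in the fit of each line, and Ppara was too dim to compare. The Ppard probe detected on all arrays (ILMN_1221142) had 541 in the lowest, 669 in the median and 771 in the highest Ts3Yah mouse, against 573, 613, 638, 690 and 845 in the 5 diploid littermates. In Ms3Yah it had 575, 620 and 685 in the lowest, median and highest mouse, against 557, 593 and 738 in diploid littermates. The groups overlapped almost completely in both lines. The log2 difference was −0.02 (95% interval −0.24 to 0.21) in Ts3Yah and −0.01 (−0.18 to 0.16) in Ms3Yah. With a summed signal of endothelial markers as a covariate, a fit added after the values were seen, the Ms3Yah difference was −0.16. It then passed before adjustment but not after. A second Ppard probe (ILMN_2633449) was detected on only 3 arrays. The single Ppara probe was detected on 2 arrays, 1 of a Ts3Yah and 1 of an Ms3Yah mouse. Its signals of 82.6 to 105 over all 23 mice lie around the expression threshold of 89.8, so it was not well above background and no fold is given.

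Gpihbp1, which holds Lpl on the capillary wall, was the member with the lowest p in both lines, and its differences had opposite signs. The paper, working from the same arrays, already lists Gpihbp1 among the genes deregulated in opposite directions, so this is not an independent result. Probe ILMN_2614842 had 351 in the lowest, 392 in the median and 524 in the highest Ts3Yah mouse, against 378, 469, 591, 634 and 646 in the 5 diploid littermates. All 6 Ts3Yah mice lay below the diploid mean and 3 below every littermate, while the diploid mouse at 378 fell among them. The means were 406 ± 64.8 in Ts3Yah and 544 ± 116 in diploid mice (SD), a fold of 0.746 and a log2 difference of −0.41 (SE 0.14, adjusted p = 0.853). In Ms3Yah the same probe had 513, 657 and 730 in the lowest, median and highest mouse, against 415, 496 and 596 in diploid littermates. All 6 Ms3Yah mice lay above the diploid mean and 4 above every littermate. The means were 630 ± 84.6 in Ms3Yah and 504 ± 69.0 in diploid mice, a fold of 1.25 and a log2 difference of 0.32 (SE 0.10, adjusted p = 0.843). With signals scaled to a common array median in place of quantile normalisation, this Ms3Yah difference was 0.26 (adjusted p = 1.00) and no longer passed before adjustment.

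The second Gpihbp1 probe, ILMN_1217969, ran the same way. It had 229, 288 and 312 in the lowest, median and highest Ts3Yah mouse, against 268, 275, 321, 331 and 420 in the diploid littermates, and 6 of 6 Ts3Yah mice were below the diploid mean. Its log2 difference in Ts3Yah was −0.19 (95% interval −0.43 to 0.05). In Ms3Yah it had 421, 477 and 528, against 326, 398 and 465 in diploid littermates, with 6 of 6 mice above the diploid mean and a log2 difference of 0.27 (adjusted p = 0.927). Both probes deviated together within groups over the 23 mice (Pearson r = 0.718, permutation p = 0.0009; Spearman rho = 0.696, permutation p = 0.00087; r = 0.694 without the 2 mice farthest from the median).

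Gpihbp1 is made in endothelial cells, and markers of these cells were read beside it. Log2 differences of 12 endothelial markers were negative for 10 and positive for 2 in Ts3Yah (median −0.10), and positive for 7 and negative for 5 in Ms3Yah (median 0.10). Of these 12, 3 were lower in Ts3Yah before adjustment and none higher, 3 were higher in Ms3Yah and none lower, and none passed adjustment, where the background over the brightest probe of every gene was 3.35% lower in Ts3Yah and 3.02% higher in Ms3Yah. Flt1, a receptor for vascular growth factors, averaged 1082 ± 117 in Ts3Yah and 1299 ± 92.3 in diploid mice (log2 −0.27, adjusted p = 0.802), and 1410 ± 234 in Ms3Yah and 1184 ± 88.9 in diploid mice (0.24, adjusted p = 0.945). The summed signal of the 12 markers was 6284 to 6881 in Ts3Yah mice and 6502 to 7953 in diploid littermates, and 7847 to 9339 in Ms3Yah and 7434 to 8796 in diploid littermates. With this sum as a covariate, a fit added after the values were seen, the Gpihbp1 difference on ILMN_2614842 was −0.33 (adjusted p = 0.904) in Ts3Yah and 0.25 (adjusted p = 1.0) in Ms3Yah. The same covariate moved Fabp3, Ucp3 and Slc27a1 in Ms3Yah toward 0. It moved other members away from 0, in Ms3Yah Ppard to −0.16, Cd36 to −0.19 and Angptl4 to −0.70, and in Ts3Yah Lpl to −0.30. Of these, only Ppard passed before adjustment. Among 7 macrophage markers none differed before adjustment in either line, and among 9 markers of slow and oxidative fibres 1 did in Ts3Yah and none in Ms3Yah. All 9 slow fibre markers had a positive difference in Ms3Yah (median 0.10), and in Ts3Yah 4 were positive and 5 negative (median −0.03). The marker that passed before adjustment was myoglobin (Mb), with 22950 ± 3242 in Ts3Yah and 27583 ± 1419 in diploid mice (log2 −0.27, adjusted p = 0.802). The part of the slow fibre markers in the member differences was not tested. In bulk muscle, fewer cells of a type and less RNA per cell cannot be told apart.

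Lpl, the enzyme that Gpihbp1 anchors, did not differ beyond the spread in either line. The detected probe (ILMN_2692723) had 6043, 7463 and 12430 in the lowest, median and highest Ts3Yah mouse, against 7397, 7732, 9571, 10221 and 10221 in diploid littermates. Of the Ts3Yah mice, 5 of 6 lay below the diploid mean and 3 below every littermate, but mouse 34730 had the highest signal of the line. The log2 difference was −0.18 (95% interval −0.54 to 0.17), and without that mouse it was −0.32 (adjusted p = 0.836). In Ms3Yah it had 9238, 11373 and 14725, against 7875, 10919 and 12701 in diploid littermates, with 3 mice above and 3 below the diploid mean, and the difference was 0.10 (−0.20 to 0.40). A second Lpl probe (ILMN_2585447) was detected on 3 arrays only.

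Angptl4, the secreted inhibitor of Lpl, varied more between mice of the Ms3Yah line than any other detected member. Probe ILMN_2759365 had 123, 368 and 1288 in the lowest, median and highest Ms3Yah mouse, against 138, 350 and 2026 in diploid littermates. The highest mouse was 10.4 times the lowest in Ms3Yah and 14.7 times in its diploid group, against 1.91 times in Ts3Yah and 1.66 times in the diploid mice of that line. With such a spread, the Ms3Yah difference of −0.23 has a 95% interval of −1.58 to 1.12. In Ts3Yah the probe had 108, 140 and 206, against 112, 113, 124, 168 and 186 in diploid littermates, and the difference was 0.08 (−0.34 to 0.50). The second Angptl4 probe (ILMN_2424627) was detected on 1 array.

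Among the carriers, Fabp3 had the largest difference in Ms3Yah, which did not pass before adjustment in the fit of that line. It had 6162, 9218 and 9608 in the lowest, median and highest Ts3Yah mouse, against 7875, 8288, 9198, 10088 and 10362 in diploid littermates. Of these Ts3Yah mice, 4 lay above the diploid mean and 2 below all littermates, and the log2 difference was −0.13 (95% interval −0.40 to 0.13). In Ms3Yah it had 7450, 10396 and 15074, against 5587, 7576 and 13008 in diploid littermates. Here 5 of 6 Ms3Yah mice lay above the diploid mean, and the diploid mouse 37094 at 13008 lay above all but 1 of them. The difference was 0.41 (SE 0.19, adjusted p = 0.973), and without mouse 37094 it was 0.56 (adjusted p = 0.674). It passed before adjustment without mouse 37094 and without Ms3Yah mouse 37148 (0.51). The same held with Xist as a covariate (0.42) and in a fit of all 4 groups (0.41). With the endothelial marker sum as a covariate the Ms3Yah difference was 0.14 (adjusted p = 1.00).

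The membrane transporters showed less. Slc27a1, a fatty acid transporter with acyl-CoA synthetase activity, had 191, 270 and 337 in the lowest, median and highest Ts3Yah mouse, against 241, 273, 295, 322 and 373 in diploid littermates. Its differences were −0.17 (95% interval −0.46 to 0.13) in Ts3Yah and 0.12 (−0.21 to 0.45) in Ms3Yah, where it had 251, 356 and 424, against 244, 288 and 428 in diploid littermates. With Xist as a covariate its Ts3Yah difference was −0.28. With a summed adipocyte marker signal as a covariate, added after the values were seen, its Ms3Yah difference was 0.27. Both then passed before adjustment but not after. Cd36, the main fatty acid translocase of muscle, was read by a probe with signals of 102 to 156, close to the expression threshold of 89.8 although detected on all arrays. All 6 Ts3Yah mice (103 to 111) lay below the diploid mean of 111 ± 5.73, with a log2 difference of −0.06 (−0.14 to 0.02). In Ms3Yah the signals were 104 to 119, against 102 to 156 in diploid littermates, with a difference of −0.08 (−0.27 to 0.10). Near the threshold, background makes up much of the signal and a fold is compressed.

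Ucp3 was read by a pair of probes that ordered the mice closely alike (Pearson r = 0.952 and Spearman rho = 0.937 of within-group deviations over 23 mice, both with a permutation p of 1e-05, the smallest that 100000 permutations can give; r = 0.937 without the 2 farthest mice). The brighter one, ILMN_2452102, had 162, 242 and 314 in the lowest, median and highest Ts3Yah mouse, against 156, 172, 220, 338 and 458 in diploid littermates. In Ms3Yah it had 150, 262 and 451, against 125, 170 and 342 in diploid littermates. Signals differed 1.94-fold to 3.01-fold between the lowest and the highest mouse of a group, and the groups overlapped widely. The log2 difference was −0.09 (95% interval −0.64 to 0.47) in Ts3Yah and 0.39 (−0.25 to 1.04) in Ms3Yah. The second probe, ILMN_1233132, had 155 to 261 in Ts3Yah mice and 143 to 302 in diploid littermates, and 126 to 303 in Ms3Yah mice and 124 to 269 in diploid littermates, with differences of 0.04 (−0.42 to 0.50) and 0.36 (−0.19 to 0.91). With the endothelial marker sum as a covariate, the Ms3Yah differences of ILMN_2452102 and ILMN_1233132 were −0.0029 and −0.014 (adjusted p = 1.00 for both).

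**Figure D2:**
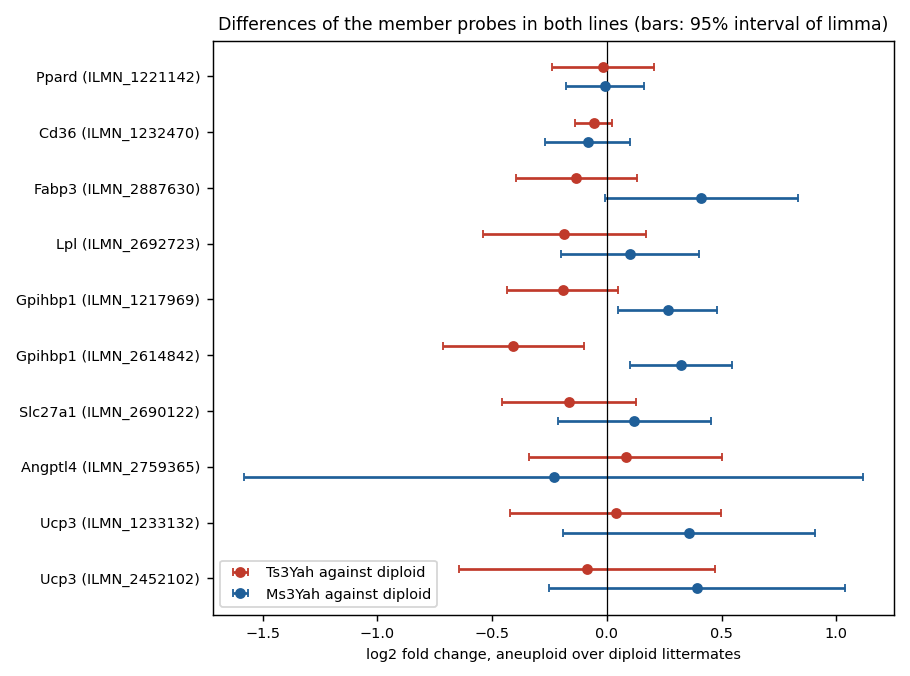
Log2 fold change of aneuploid mice over diploid littermates for the 10 detected member probes, with 95% intervals from limma, Ts3Yah above Ms3Yah for each probe. Both Gpihbp1 probes lie left of 0 in Ts3Yah (−0.41 and −0.19) and right of 0 in Ms3Yah (0.32 and 0.27), and the Ms3Yah interval of Angptl4 runs from −1.58 to 1.12.

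The difference between the effects of the duplication and of the deletion was tested in 1 fit of all 4 groups, as the Ts3Yah difference minus the Ms3Yah difference. No member passed adjustment, as for all but 0.0266% of 45139 probes. Before adjustment 3 of 14 member probes were below 0 and none above, against 3.03% of all probes below 0 and 2.68% above, or 5.71% in either direction. Gpihbp1 had −0.73 (SE 0.19, 95% interval −1.12 to −0.34, adjusted p = 0.341) on ILMN_2614842 and −0.46 (adjusted p = 0.708) on ILMN_1217969. Fabp3 had −0.55 (adjusted p = 0.852), and it no longer passed before adjustment when any 1 of 11 of the 23 mice was left out, with log2 differences of −0.69 to −0.44 over all 23. For ILMN_2614842 the difference was −0.85 to −0.66 whichever mouse was left out, with an adjusted p between 0.112 and 0.558.

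The diploid mice of the lines were also compared, Ts3Yah littermates over Ms3Yah littermates. Line, cohort and array batch cannot be told apart there. Many probes differed, with 2.7% of 45139 called after adjustment, and no member was among them. Before adjustment 2 of 14 member probes were lower and none higher, against 7.67% lower and 8.89% higher over all probes, or 16.6% in either direction. Angptl4 had 112 to 186 in the 5 Ts3Yah littermates and 138 to 2026 in the 6 Ms3Yah littermates, a fold of 0.223 (log2 −1.63, SE 0.52, adjusted p = 0.0988). Only diploid mouse 37146, at 138, lay within the range of the Ts3Yah line, and without it the adjusted p was 0.0354. That was the lowest value with any 1 mouse left out. Over all such fits the adjusted p ran from 0.0354 to 0.204 and the log2 difference from −1.96 to −1.18. Gpihbp1 probe ILMN_1217969 was at 323 ± 60.8 in Ts3Yah littermates and 396 ± 66.6 in Ms3Yah littermates (adjusted p = 0.185), while ILMN_2614842 differed by 0.09 on the log2 scale (adjusted p = 0.799). Adipocyte marker signal differed between these mice as well: the summed signal of 7 markers was 894 to 2620 in Ts3Yah littermates and 1285 to 8677 in Ms3Yah littermates. With that sum as a covariate, added after the values were seen, the Angptl4 difference was −0.43 (adjusted p = 0.796).

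Other genes of the pathway were counted from lists, using the brightest probe of each gene, and none of them passed adjustment. Among 21 other PPAR target genes of muscle, mostly enzymes of fatty acid oxidation, 4 were lower and none higher in Ts3Yah before adjustment, and 18 of 21 log2 differences were negative (median −0.08). In Ms3Yah 7 were higher and none lower, and 19 of 21 were positive (median 0.20). Over the brightest probe of every gene, 3.35% were lower and 3.06% higher in Ts3Yah, 3.02% were higher and 2.98% lower in Ms3Yah, and the median was within 0.002 of 0. Acadm, the medium-chain acyl-CoA dehydrogenase, averaged 5782 ± 638 in Ts3Yah and 6689 ± 299 in diploid mice (log2 −0.22, adjusted p = 0.830). Acadvl, which acts on very long chains, averaged 3022 ± 290 in Ts3Yah and 3371 ± 134 in diploid mice (−0.16, adjusted p = 0.853), and 3752 ± 429 in Ms3Yah and 3172 ± 211 in diploid mice (0.24, adjusted p = 0.827). Acaa2, the thiolase of the last step, had the lowest p of these genes in Ms3Yah, with 1542 ± 174, against 1071 ± 307 in diploid mice (0.56, adjusted p = 0.637). Between lines, 8 of the 21 were below 0 and none above before adjustment, against 3.47% below and 3.01% above over all genes.

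Among 24 other genes of fatty acid uptake, activation and storage, 2 were lower and none higher in Ts3Yah, and 3 were higher and 1 lower in Ms3Yah, all before adjustment. Pnpla2, the lipase that opens triglyceride stores, averaged 2978 ± 391 in Ts3Yah and 3893 ± 440 in diploid mice (log2 −0.39, adjusted p = 0.689). Got2, an aminotransferase also described as a plasma membrane fatty acid binding protein, was at 11543 ± 801 in Ts3Yah and 13090 ± 602 in diploid mice (−0.18, adjusted p = 0.795). In Ms3Yah it was at 13897 ± 1485, against 11641 ± 1450 in diploid mice (0.26, adjusted p = 0.862). Plin5, which coats lipid droplets in oxidative tissue, was at 386 ± 102 in Ms3Yah and 253 ± 115 in diploid mice (0.67, adjusted p = 0.885).

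Of 11 PPAR partners and coregulators, 1 was higher in Ts3Yah, and in Ms3Yah 1 was higher and 2 lower before adjustment. Rxra, the retinoid X receptor that pairs with PPARs, averaged 167 ± 13.1 in Ts3Yah and 141 ± 13.4 in diploid mice (log2 0.24, adjusted p = 0.802). Ppargc1a, a coactivator of PPARs, averaged 242 ± 31.8 in Ms3Yah and 191 ± 11.7 in diploid mice (0.33, adjusted p = 0.509). Rxrg, the retinoid X receptor typical of muscle, averaged 497 ± 88.2 in Ms3Yah and 573 ± 27.5 in diploid mice (−0.22, adjusted p = 0.968). Nrip1, with a changed copy number, gave a dim signal detected on 18 arrays. It averaged 118 ± 8.69 in Ts3Yah and 111 ± 11.8 in diploid mice. In the other line it averaged 96.1 ± 4.35 in Ms3Yah and 103 ± 6.89 in diploid mice (−0.10, adjusted p = 0.968). These signals lie near the expression threshold, where a fold is compressed, so they do not measure how far Nrip1 RNA follows its copy number. The paper, using quantitative PCR, reports Nrip1 among the genes that followed gene dosage in both lines.

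**Figure D3:**
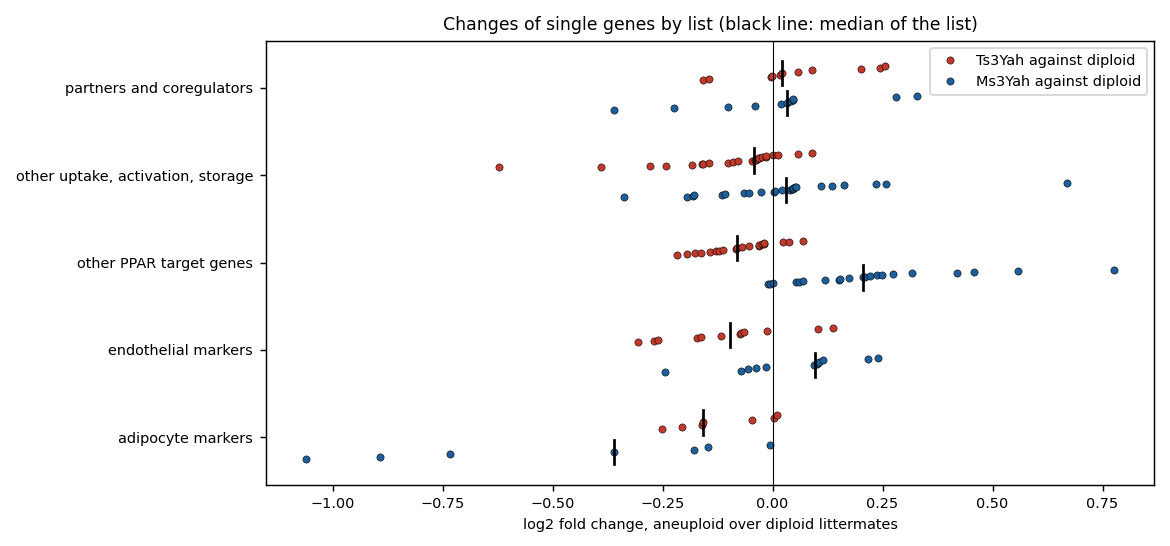
Log2 fold change of single genes over diploid littermates by list, 1 point per gene (brightest probe), Ts3Yah above Ms3Yah, with the median of each list as a black line. The 21 other PPAR target genes centre at −0.08 in Ts3Yah and 0.20 in Ms3Yah, the 12 endothelial markers at −0.10 and 0.10, and the 7 adipocyte markers at −0.16 and −0.36; no gene shown passed adjustment.

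Among mice of 1 genotype, most pairs of members varied in the same direction. The brightest detected probe of 8 members was compared over the 23 mice as deviation from its group mean, which gave 28 pairs, with permutation of mice within groups. Pearson r was positive in 27 pairs (96.4%, median 0.40), where over all pairs of 7834 genes detected on the same arrays it was positive in 50.2% (median 0.002). By line, 18 pairs were positive and 10 negative in the Ts3Yah line, and 27 positive and 1 negative in the Ms3Yah line. Of the 28 pairs, 4 passed adjustment over the 28 by Pearson and none by Spearman. The lowest r of these 4 was 0.583, so this level comes from the member values themselves. Over 23 mice it was reached by 1.37% of all gene pairs. In the Ts3Yah line 3 of the 28 pairs and 5.12% of all gene pairs reached it, and in the Ms3Yah line 10 and 5.41%. Cd36 and Angptl4 had r = 0.754 (permutation p = 0.00131, adjusted 0.0345) and rho = 0.576 (p = 0.0128, adjusted 0.0596). By line, r was −0.24 over the 11 mice of the Ts3Yah line, where Angptl4 spanned a narrow range, and 0.849 over the 12 of the Ms3Yah line, and this difference was not tested. Lpl and Slc27a1 had r = 0.633 (permutation p = 0.0037, adjusted 0.0345) and rho = 0.665 (p = 0.00205, adjusted 0.0563), with an r of 0.591 among Ts3Yah mice and littermates and 0.686 among Ms3Yah mice and littermates. Ppard and Fabp3 had r = 0.583 (permutation p = 0.00332, adjusted 0.0345) and rho = 0.552 (p = 0.0110, adjusted 0.0596), with 0.498 and 0.715 in the lines. Slc27a1 and Angptl4 had r = 0.590 (permutation p = 0.00709, adjusted 0.0496) and rho = 0.628 (p = 0.00459, adjusted 0.0563), with 0.111 and 0.767. Without the 2 mice farthest from the median of the first gene, r was 0.610, 0.607, 0.499 and 0.491 for these pairs. Within the arrays of high Xist signal it was 0.882, 0.685, 0.743 and 0.539, and within those of low Xist signal 0.576, 0.658, 0.501 and 0.726. With signals scaled to the array median, 16 pairs passed. With deviations also adjusted for Xist, 3 passed, and Slc27a1 with Angptl4 did not (adjusted p = 0.0771 by permutation). Lpl, Slc27a1 and Angptl4 are also the members related over all mice to an adipocyte marker sum that falls into clusters, as given below. The r of pairs that hold them carries the same limit, and the part of that sum in these r was not tested.

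**Figure D4:**
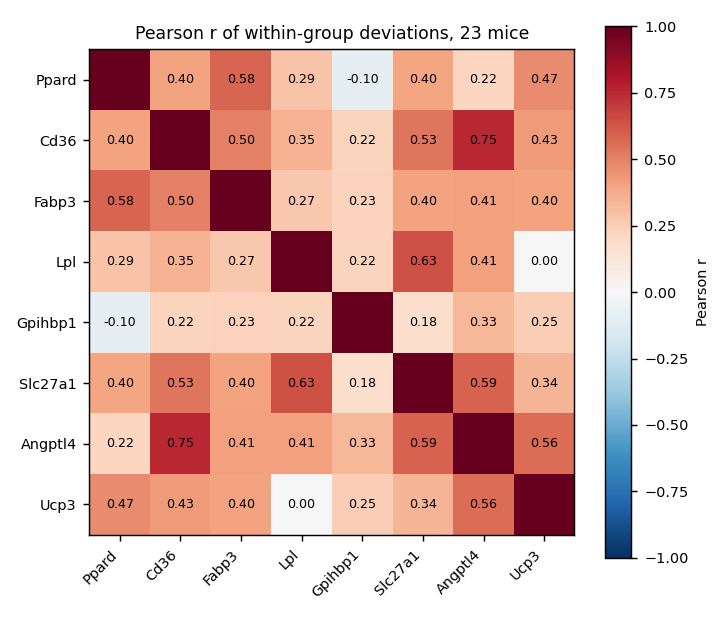
Pearson r between the within-group deviations of 8 members over 23 mice, on a colour scale of −1 to 1. Red fills 27 of the 28 pairs, Cd36 with Angptl4 is highest at 0.754, r of Gpihbp1 with the other members lies between −0.10 and 0.332, and Lpl with Ucp3 is near 0 at 0.0017.

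Adipocyte marker signal also varied among the mice. The summed signal of the 7 adipocyte markers was 1151 to 1611 in Ts3Yah mice and 894 to 2620 in their diploid littermates, against a far wider spread in the other line. In the Ms3Yah line it fell into separate ranges, with 1082 to 1545 in 3 Ms3Yah mice and 1 diploid mouse and 3969 to 8677 in 3 Ms3Yah mice and 5 diploid mice. Lpl had 7875 to 9642 in the 4 mice of low sum and 10182 to 14725 in the 8 of high sum. The ranges of the other members overlapped. In the Ts3Yah line, with sums of 894 to 2620, Lpl ran from 6043 to 12430, which overlaps both of these Lpl ranges. Relations between the 8 members and marker levels were computed in 2 versions, both chosen after the values were seen. The first took all 23 mice together, with adipocyte, endothelial, macrophage and slow fibre markers and Xist, and of its 40 relations 3 passed adjustment by Pearson and 2 by Spearman, the 3 being those of Lpl, Slc27a1 and Angptl4 with the adipocyte sum. Since the adipocyte sums and Xist fall into clusters, no r is given for that version. It was replaced by one that left out Xist and split the Ms3Yah line by adipocyte sum. Adipocyte relations were then taken in the 8 Ms3Yah-line mice of high sum and in a set of 14 mice. The 14 were the whole Ts3Yah line, whatever the sum, and the 3 Ms3Yah mice of low sum. In this second version none of 40 relations passed adjustment by Pearson or Spearman, the lowest adjusted p being 0.176, and 8 had an unadjusted Pearson p below 0.05. Within the 8 mice of high sum, r with the adipocyte sum was 0.991 for Ppard (exact permutation p = 0.00694, adjusted 0.176; rho = 0.976, p = 0.00833, adjusted 0.232), and 0.967 without the 2 farthest mice. For Lpl it was 0.745 (exact permutation p = 0.0667, adjusted 0.239; rho = 0.571, p = 0.174, adjusted 0.347), and 0.545 without the 2 farthest mice. In the same 8 mice r was 0.935 for Slc27a1 and 0.693 for Angptl4. In the set of 14 mice it was 0.705 for Ppard, and 0.414 without the 2 farthest mice. For Lpl, Slc27a1 and Angptl4 it was 0.405, 0.545 and 0.260 in that set. Diploid mouse 37094 had the highest Angptl4 signal, 2026, and the highest adipocyte sum, 8677. Its Slc27a1 and Cd36 signals, 428 and 156, were the highest of its line. Lpl was read with the adipocyte sum as a covariate too, a fit added after the values were seen, and its Ms3Yah difference was then 0.27 (adjusted p = 0.159). How far adipocytes between the fibres account for these signals was not tested.

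**Figure D5:**
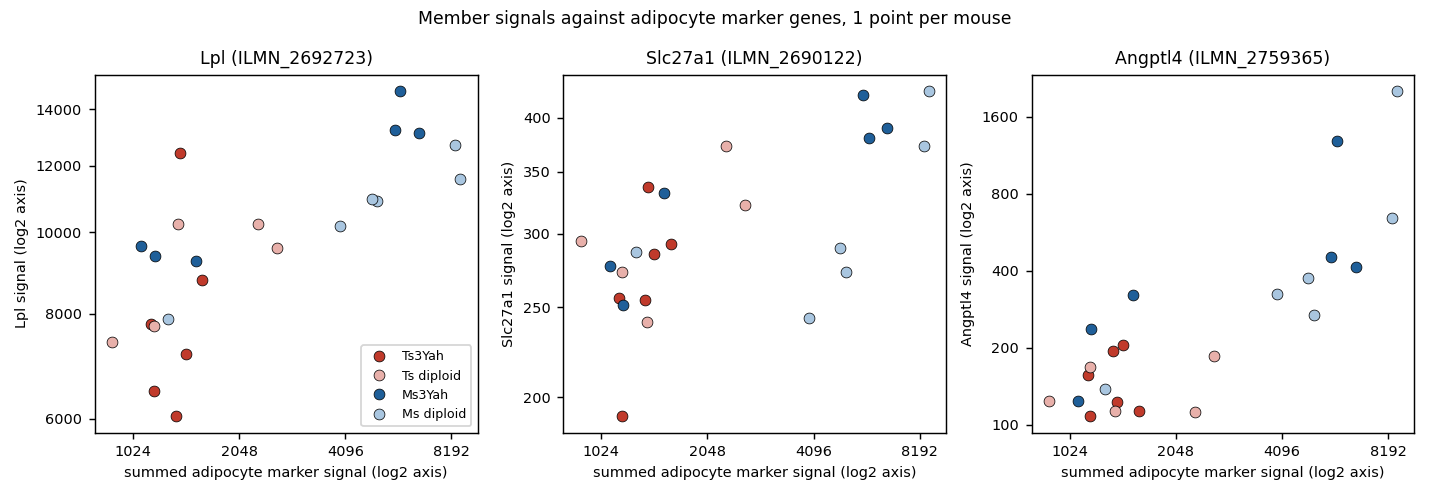
Signals of Lpl, Slc27a1 and Angptl4 against the summed signal of 7 adipocyte markers, log2 axes, 1 point per mouse and 4 groups by colour. Mice of the Ts3Yah line lie between 894 and 2620 on the horizontal axis, and mice of the Ms3Yah line split into 1082 to 1545 and 3969 to 8677.

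For each of the 8 members the non-member genes with the most similar within-group deviations were taken among 7826 genes detected on all arrays. These r are a description over 23 mice that share arrays and normalisation, chosen as the highest of many, and carry no p. Lpl was followed most closely by Dgat2, the enzyme of the last step of triglyceride synthesis (r = 0.905), then Fmo1 (0.832) and Fam117b (0.805). Ucp3 was followed by Pdk4, the kinase that shuts pyruvate dehydrogenase when fatty acids are burned (0.786), then Abra (0.777) and Hoxa5 (0.761). Fabp3 was followed by Slc25a20, the acylcarnitine carrier of mitochondria (0.786), Pxmp4 (0.772) and Plin5 (0.757). Angptl4 was followed by Rpn2 (0.867), Mgll, the lipase that splits monoglycerides (0.865), and Orm1 (0.861). Cd36 was followed by Tnfrsf12a (0.843), Fkbp11 (0.841) and the lipid droplet protein Plin2 (0.799), and Slc27a1 by Os9 (0.835), Rnf181 (0.833) and Pik3r1 (0.819). Ppard had Tmem52 (0.873), Slc38a3 (0.814) and Tmem9 (0.800), and Gpihbp1 had Derl2 (0.751), Dnajc7 (0.701) and Timp4 (0.667). The r of Dgat2 with Lpl was 0.895 in the arrays of high Xist signal and 0.919 in those of low, and that of Pdk4 with Ucp3 was 0.871 and 0.772.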

How the data were processed

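The authors labelled gastrocnemius RNA from 1 mouse for each Illumina MouseWG-6 v2.0 array. The authors excluded 1 more Ts3Yah littermate, not analysed here. The deposited signals are intensity values per probe and array, not normalised between arrays, each with a deposited detection p-value. The deposited series matrix holds intensity values that the authors had background-subtracted and quantile normalised. Its column medians run from 3.81 to 3.85, and the method of background subtraction is not given in the sources used here. Quantile normalisation of the deposited signals took in all 23 arrays, and log2 values were tested. Probes counted as expressed in a line when any of its arrays exceeded the 35th percentile (89.8, log2 6.49). Each line was fitted apart with limma 3.58.1 in R 4.3.3, and differences between lines and between diploid groups in a fit of all groups, two-sided, with Benjamini-Hochberg adjustment over all expressed probes. Folds are ratios of mean linear signals. The code was tested on simulated data. Of 45281 probes, 34885 carry 1 gene name in the platform annotation, 34807 of them updated, 18 carry several and 10378 none. Correlations used 100000 permutations within groups or, under 10 mice, all of them (Python 3.11.15, scipy 1.17.1).

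The members and lists were chosen with earlier results of these data known. Named are all members and their probes, up to 4 genes of each list with the smallest p, and the 3 genes most like each member. Usp25 was named after its values were seen. Some list genes are not reported here. Alternatives were array-median scaling, neqc background correction, the series matrix, detection filter, no filter, Xist as a covariate, array weights and the methods' t-test. Also run were a fit of all 4 groups, marker sums as covariates (added after seeing the data) and leaving out each mouse. With 5 or 6 arrays in a group, array number limits precision.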

Additional observations from a re-analysis of the deposited data

Results flagged for a closer look

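The change in Ts3Yah minus that in Ms3Yah, tested in the fit of all 4 groups, was away from 0 before adjustment for both Gpihbp1 probes and for Fabp3. The values were −0.73 for Gpihbp1 ILMN_2614842, −0.46 for Gpihbp1 ILMN_1217969 and −0.55 for Fabp3 ILMN_2887630, with adjusted p of 0.341, 0.708 and 0.852. Beside Gpihbp1, 9 of 12 endothelial markers had a negative difference between lines. Of the 12, 5 were below 0 at an unadjusted p below 0.05, against 3.47% over the brightest probe of every gene. With the endothelial marker sum as a covariate ILMN_2614842 had −0.58 (adjusted p = 0.901), ILMN_1217969 had −0.23 (adjusted p = 0.998) and Fabp3 had −0.24 (adjusted p = 0.998).

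Diploid mouse 37075 of the Ms3Yah line had the lowest signal of its group on the second Ppard probe (ILMN_2633449), 86.7, with the other 5 mice between 90.2 and 92.0. The probe was detected on 3 of 23 arrays. It was the only such case among 56 groups screened, where chance flags about 1 in 20.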

How the results depend on the processing

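No paired analysis was possible because the replicate numbers are mouse identifiers that no groups share. The number of member probes with an unadjusted p below 0.05 was 1 in Ts3Yah. It was 2 with Xist (Slc27a1 added) or with the adipocyte marker sum (Gpihbp1 ILMN_1217969 added) as a covariate. In Ms3Yah the number was 2, and 0 under median scaling and 1 with the series matrix. It was 3 with Xist as a covariate or in a fit of all 4 groups, where Fabp3 was added. With the adipocyte sum as a covariate it was 4 (Lpl and Slc27a1 added). With the endothelial sum it was 1, Ppard ILMN_1221142 at −0.16, and no Gpihbp1 probe. For the difference between lines it was 3, and 1 under median scaling, 5 with the adipocyte and 1 with the endothelial sum, and 2 with the series matrix or with array weights, where Fabp3 lost its call. Between diploid groups it was 2, and 1 under median scaling and 0 with the adipocyte sum. Adjusted calls stayed at 0 except between diploid groups, where Angptl4 was called with the detection filter (1 probe, adjusted p = 0.0484). Gpihbp1 ILMN_2614842 in Ms3Yah, 0.32 on the log2 scale, was 0.26 under median scaling and 0.25 with the endothelial sum, past the unadjusted threshold in neither. Pairs of members passing adjustment were 4, and 16 under median scaling and 3 with Xist adjustment. The marker sums were chosen as covariates after seeing the data, and the cause of these shifts was not tested.

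Leaving out each mouse gave 1 to 2 probes in Ts3Yah (2 without Ts3Yah 34730, diploid 34561 or diploid 34925), 2 to 4 in Ms3Yah (4 without Ms3Yah 37148), 2 to 4 between lines and 1 to 3 between diploid groups (1 without diploid 34561 or 34731), with 0 to 1 adjusted calls in the last. The log2 difference of Gpihbp1 ILMN_2614842 ran from −0.53 to −0.34 in Ts3Yah, 0.27 to 0.38 in Ms3Yah and −0.85 to −0.66 between lines. Of 1433 values of single probes under all alternatives, 1383 kept their side of the unadjusted threshold, 27 lost and 23 gained it, and 0 of those past it changed sign.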
